A study of Rattus norvegicus with 8 samples.

Results

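Fibroblast growth factors (FGFs) and their receptors were examined in vascular smooth muscle cells with and without angiotensin II (AngII), a vessel-constricting peptide hormone. The set held 10 listed genes, of which 9 had a locus whose RefSeq accessions mapped to that symbol alone, among 14767 symbols so matched in the RNA table. The 9 were the ligands Fgf1, Fgf2, Fgf7, Fgf9, Fgf10 and Fgf16 and the receptors Fgfr1, Fgfr2 and Fgfr3, each taken at its locus with the highest mean RNA level. Fgf18 had no matched locus and was not analysed here. The list was made with the RNA results of these same 2 libraries known, and each locus was selected on its mean FPKM, so the RNA values are a description. The cells were primary cultures of thoracic aorta from Sprague-Dawley rats, grown in M199 medium with serum. The control group was untreated, and the AngII group received 0.1 uM for 3 h after an overnight serum starvation that the labels state for AngII samples only, so starvation and AngII cannot be told apart from the labels. RNA-seq, ChIP-seq of H3K4me3, a mark of active promoters, and ChIP-seq of H3K36me3, a mark of transcribed gene bodies, were each represented by 1 library per condition. No difference below has a replicate check, and no test across samples was possible.

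FGFs are secreted proteins that bind receptor tyrosine kinases together with heparan sulfate chains on the cell surface. The activated receptor signals through the adaptor Frs2 to Ras and the ERK kinases, and Sprouty and Dusp proteins limit that signal. In the vessel wall Fgf2 is known as a mitogen of smooth muscle cells. Fgf1 and Fgf2 lack a classical signal peptide, Fgf7 and Fgf10 act mainly on the epithelial splice form of Fgfr2, and Fgf9 and Fgf16 belong to 1 subfamily.

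RNA levels are in FPKM, fragment counts scaled to transcript length and library size, with the lower and upper bounds that the authors deposited for each locus. The bounds lie 2 SD either side of the estimate and are errors of the authors' model, without variation between cultures. The total of sequenced fragments per library is unknown here. The cells carried smooth muscle RNAs, with Tagln at 5103 and 5244 FPKM in control and AngII and 7 of 8 matched smooth muscle markers at 1 FPKM or more. None of 6 endothelial markers reached 1 FPKM (summed level 0.718 and 0.462 FPKM), and Tie1, Emcn and Cldn5 were listed at 0. Of 8 leukocyte markers Ptprc, Itgam, Cd3e and Aif1 were listed at 0, and Cd14 stood at 5.46 and 6.77 FPKM. Of 4 epithelial markers Krt18 stood at 1.51 and 10.2 FPKM, Epcam at 0 and 0.823, Cdh1 at 0.00829 and 0, and Krt14 at 0 and 0.0227. Fibroblast markers summed to 172 and 134 FPKM. The part of these cell types in the results was not tested, and in bulk RNA fewer cells of a type and less RNA per cell cannot be told apart.

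Promoter sequences were taken from RefSeq on the assembly GRCr8, which holds an entry for 9 of the 10 genes (all but Fgfr1). The 250 bases before the annotated start are shown for the ligands with the most different RNA levels in either direction, Fgf2 and Fgf16, and for the receptor Fgfr2, all of which carried H3K4me3. They are written 5′ to 3′ on the gene's strand, and capitals mark matches to the motifs searched. The Fgf16 entry starts inside the span of its gene in RefSeq, so another transcript model begins further upstream.
Fgf2, chr2:122164204-122164453, plus strand: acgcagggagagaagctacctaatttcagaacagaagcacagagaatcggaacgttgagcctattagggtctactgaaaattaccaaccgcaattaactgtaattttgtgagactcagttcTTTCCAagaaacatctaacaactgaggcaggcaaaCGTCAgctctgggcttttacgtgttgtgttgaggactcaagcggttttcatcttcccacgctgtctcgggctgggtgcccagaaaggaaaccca
Fgf16, chrX:74882745-74882994, plus strand: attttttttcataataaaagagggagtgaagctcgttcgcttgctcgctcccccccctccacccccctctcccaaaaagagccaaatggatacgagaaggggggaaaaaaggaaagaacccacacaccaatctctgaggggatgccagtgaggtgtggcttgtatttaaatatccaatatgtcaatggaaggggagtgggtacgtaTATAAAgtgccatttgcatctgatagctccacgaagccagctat
Fgfr2, chr1:194280915-194281164, minus strand: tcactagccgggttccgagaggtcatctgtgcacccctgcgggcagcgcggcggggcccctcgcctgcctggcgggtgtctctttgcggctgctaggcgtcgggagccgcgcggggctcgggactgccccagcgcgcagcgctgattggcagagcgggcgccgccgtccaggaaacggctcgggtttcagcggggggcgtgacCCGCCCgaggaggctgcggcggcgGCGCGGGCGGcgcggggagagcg
The motifs were searched on both strands: the TATA box as TATAAA, the AP-1 site as TGANTCA, the core of the cAMP response element as TGACG, the Egr site as GCGNGGGCG, the GC box as GGGCGG, the ETS site as CCGGAA, the NFAT core as TGGAAA, and the CArG box bound by serum response factor. The Fgf16 window held TATAAA at bases 44 to 39 before the start, a motif found in 12.9% of 33469 promoter windows of the same length. The Fgf2 window held TGACG on the opposite strand at bases 94 to 90 (18.2% of windows) and TGGAAA on the opposite strand at bases 129 to 124 (19.7%). The Fgfr2 window held an Egr match at bases 23 to 15 (4.29% of windows) that overlaps a GC box at bases 19 to 14, and a further GC box at bases 47 to 42 (30.5% of windows hold a GC box). The other motifs, AP-1, CArG and ETS letters were in none of the 9 windows, against 6.34%, 1.5% and 12.6% of all windows. The ligands and the receptor also differed in composition. G and C made up 46.8% of the Fgf2 window and 47.2% of the Fgf16 window, near the median of 51.2% over all windows, and 76.8% of the Fgfr2 window. CpG dinucleotides numbered 9, 6 and 37 in these windows, where the median window held 5.

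Among the ligands, Fgf2 and Fgf7 RNA was higher after AngII and Fgf16 RNA was lower. Fgf2, which is located on chromosome 2 (123893313 to 123947136 in the files, build rn4), measured 4.53 FPKM (bounds 2.09 to 6.97) in the control library against 34.0 FPKM (19.4 to 48.6) in the AngII library. The bounds do not overlap, and the ratio of the FPKM values was 7.51. On the log2((AngII FPKM + 1)/(control FPKM + 1)) scale used from here on, which understates differences of low values, Fgf2 had a ratio of 2.66 ± 0.44 (SD from the deposited bounds). Fgf7, also called keratinocyte growth factor and made by mesenchymal cells, measured 2.83 FPKM (bounds 1.16 to 4.49) in the control library against 14.5 FPKM (7.65 to 21.3) in the AngII library. Its bounds do not overlap either, and its log2 ratio was 2.01 ± 0.45. Fgf16, known from heart and brown fat, measured 35.9 FPKM (bounds 20.1 to 51.8) in the control library against 3.75 FPKM (1.57 to 5.93) in the AngII library. The bounds are far apart, with the control value 9.59 times the AngII value and a log2 ratio of -2.96 ± 0.45. Fgf16 lies on the X chromosome (93870483 to 93880067).

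**Figure D1:**
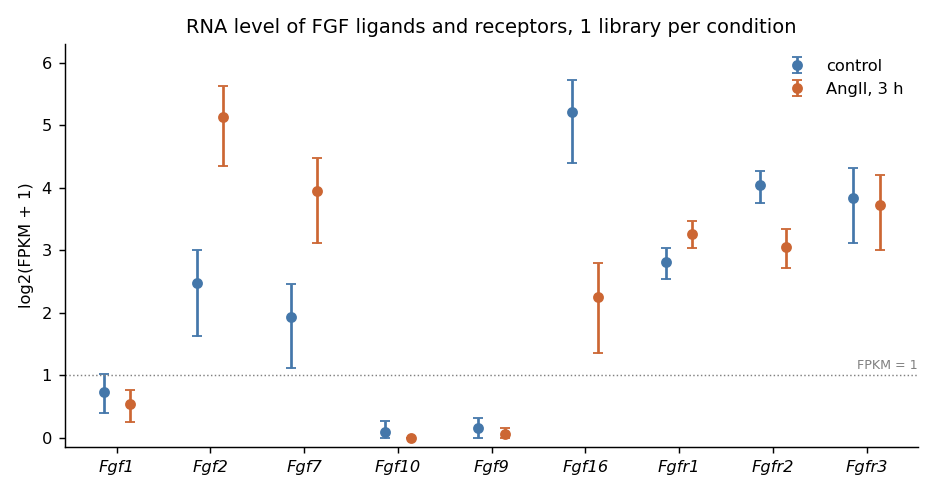
RNA level of the 9 matched FGF genes, as log2(FPKM + 1), in the control library (blue) and the AngII library (orange); points are the deposited estimates and bars the deposited bounds. Fgf2 and Fgf7 lie higher after AngII and Fgf16 lower, each with bounds that do not overlap, while Fgf1, Fgf9 and Fgf10 stay under the dotted line at 1 FPKM.

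The other 3 matched ligands were under 1 FPKM in both libraries. Fgf1 measured 0.663 FPKM (bounds 0.307 to 1.02) in the control library against 0.448 FPKM (0.193 to 0.703) in the AngII library, with overlapping bounds and a log2 ratio of -0.20. Fgf9 stood at 0.110 and 0.0356 FPKM. Fgf10, a mesenchymal factor of lung and limb development, stood at 0.0650 FPKM in control and was listed at 0 after AngII. The bounds of Fgf9 are those of 3 fragments in control and 1 after AngII, and those of Fgf10 are those of 1 fragment in control, so no fold is given for either. This reading of the bounds as fragment numbers gave values within 0.03 of a whole number in 83.2% of the 2125 loci with a lower bound of 0 in control, and in 85.3% of 3515 such loci after AngII.

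The ligand with the highest level therefore differed between the libraries. Fgf16 made up 81.4% of the summed FPKM of the 6 ligands in control (44.1 FPKM) and 7.11% after AngII (52.7 FPKM). Fgf2 made up 10.3% in control and 64.5% after AngII, and Fgf7 6.4% and 27.4%. FPKM is a level per transcript length, so these shares compare RNA molecules and not protein.

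Among the receptors, Fgfr2 RNA was lower after AngII, Fgfr1 RNA was higher by a smaller amount, and Fgfr3 RNA differed by less than its bounds. Fgfr2 (chromosome 1, 189482974 to 189589279) measured 15.4 FPKM (bounds 12.5 to 18.3) in the control library against 7.32 FPKM (5.56 to 9.08) in the AngII library. The bounds do not overlap. The control value was 2.11 times the AngII value, and the log2 ratio of -0.98 ± 0.20 fell just short of the 2-fold line on the pseudocount scale. Fgfr1 (chromosome 16, 70867968 to 70924564) measured 5.99 FPKM (bounds 4.80 to 7.18) in the control library against 8.62 FPKM (7.21 to 10.03) in the AngII library. Its bounds miss each other narrowly, and its log2 ratio was 0.46 ± 0.16. Fgfr3 measured 13.3 FPKM (bounds 7.66 to 18.9) in the control library against 12.2 FPKM (7.04 to 17.4) in the AngII library, which is a log2 ratio of -0.11 that became 0.15 when the median locus was centred. The model SD was 9.95% of the level for Fgfr1 and 9.36% for Fgfr2 in control, against 27.0% for Fgf2, 22% for Fgf16 and 21.2% for Fgfr3, so bounds of Fgfr1 and Fgfr2 separate at smaller differences. Both of these loci list several transcripts, and the table does not split the splice forms that decide ligand preference.

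Of the summed FPKM of the 3 receptors (34.7 in control and 28.2 after AngII), Fgfr2 made up 44.5% in control and 26.0% after AngII. Fgfr1 made up 17.3% and 30.6%, and Fgfr3 38.3% and 43.4%. A second listed locus of Fgfr2 was 1.18 kb long and lay 1.27 kb beyond the lower end of the first. It measured 0.70 FPKM (bounds 0.190 to 1.21) in the control library against 0.0771 FPKM (0 to 0.186) in the AngII library. Both values were under 1 FPKM, and the bounds miss each other only narrowly.

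In control the order of levels was Fgf16, Fgfr2, Fgfr3, Fgfr1, Fgf2, Fgf7, Fgf1, Fgf9 and Fgf10. Bounds overlapped between Fgfr2 and Fgfr3, between Fgfr1 and Fgf2, between Fgf2 and Fgf7 and between Fgf9 and Fgf10, while the other neighbours in this order were apart. After AngII the order was Fgf2, Fgf7, Fgfr3, Fgfr1, Fgfr2, Fgf16, Fgf1, Fgf9 and Fgf10. From Fgf2 down to Fgf16 the bounds of every pair of neighbours overlapped, so their order is not resolved from one gene to the next. Fgf2 was nevertheless apart from the 3 receptors and Fgf16, and Fgf7, Fgfr3 and Fgfr1 were apart from Fgf16. Fgf16 was above the median control level of 12.9 FPKM over 8354 expressed symbols and below the AngII median of 11.6 FPKM, and Fgf2 and Fgf7 went the other way.

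Of the 9 matched genes 6 reached 1 FPKM in at least 1 library: Fgf2, Fgf7, Fgf16, Fgfr1, Fgfr2 and Fgfr3. All 6 were at or above 1 FPKM in both libraries. Among these 6, 2 were at least 2-fold higher (3.89% of all 8354 expressed symbols were) and 1 was at least 2-fold lower (2.96%). Bounds were apart and higher for 3 (3.02% of all) and apart and lower for 2 (2.19% of all). Past 2-fold with bounds apart were 2 higher genes (2.71% of all) and 1 lower gene (1.58%). Since the list was made with these ratios known, nothing is read from these shares. The median log2 ratio of the 6 was 0.18, beside -0.22 over all expressed symbols (interquartile range -0.46 to 0.08). Without the minimum the median was -0.10 over all 9 matched genes, beside -0.0075 over all symbols. Fgf16 had the lowest ratio of the 8354 symbols, Fgf2 ranked 39 from the highest and Fgf7 92. Fgfr2 at -0.98 fell just short of the 2-fold line, and of the genes past that line Fgf7 at 2.01 lay nearest, though well beyond it. Over all expressed symbols, higher genes made up 56.8% of those past 2-fold as deposited and 83.2% when AngII values were multiplied by 1.21 to centre the median locus. Under that centring Fgf2 stood at 2.93, Fgf7 at 2.28, Fgf16 at -2.73, Fgfr1 at 0.71 and Fgfr2 at -0.73.

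**Figure D2:**
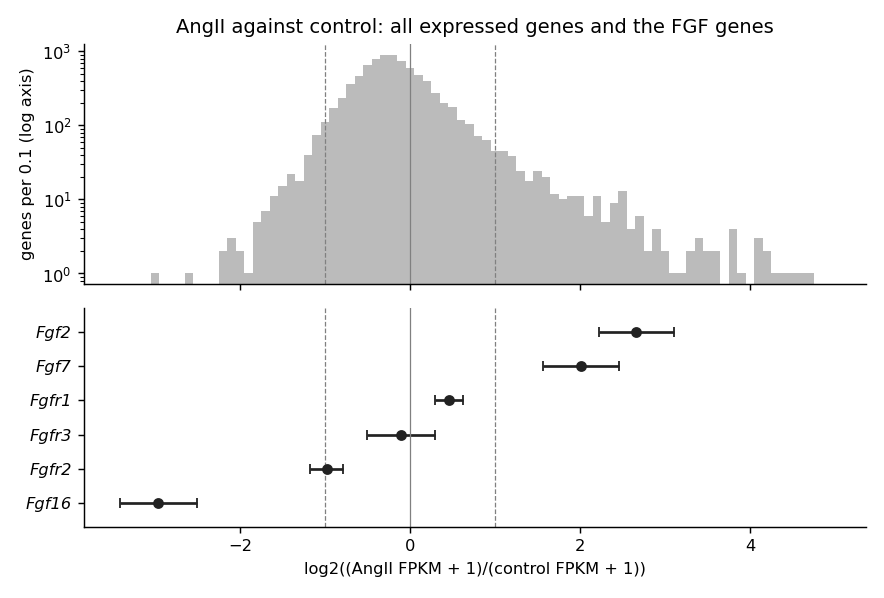
Upper panel, number of expressed genes (log axis) by log2((AngII FPKM + 1)/(control FPKM + 1)) in steps of 0.1; lower panel, the 6 FGF genes at 1 FPKM or more on the same axis, with bars of 1 SD from the deposited bounds and dashed lines at 2-fold. Fgf16 at -2.96 lies at the lower end of the distribution, Fgf2 at 2.66 and Fgf7 at 2.01 lie in its upper tail, and Fgfr2 at -0.98 touches the dashed line.

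The gene next to Fgf2 was also higher after AngII. Nudt6, a Nudix hydrolase gene whose transcript is antisense to Fgf2 at its far end, measured 5.84 FPKM (bounds 2.87 to 8.81) in the control library against 18.9 FPKM (10.5 to 27.3) in the AngII library, which is a log2 ratio of 1.54 ± 0.44 with bounds apart. The listed loci are 171 bp apart, but RefSeq on GRCr8 has the genes overlapping. The strand of the RNA reads is not stated, so reads from the shared end cannot be told apart between them. The other 3 loci within 50 kb of Fgf2 had overlapping bounds and log2 ratios between -0.38 and 0.16. Around Fgf16 an unnamed 1.21 kb locus 4.54 kb beyond its upper end measured 0.757 FPKM in control against 0.0375 FPKM after AngII. Its bounds were apart (0.216 to 1.30 and 0 to 0.113), but both values were under 1 FPKM, so no fold is given. A 148 kb locus 23.5 kb away stood at 19.3 and 16.0 FPKM with overlapping bounds.

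Fgf7 and Fgfr3 share their listed interval with other genes. The Fgf7 interval on chromosome 3 (113173733 to 113580734) holds 2 further genes, Galk2 at 17.1 and 11.4 FPKM and Fam227b at 1.33 and 0.554 FPKM, both with overlapping bounds and log2 ratios of -0.55 and -0.58. Fgf7 was the 1 gene of the 3 with a higher value after AngII. RefSeq on GRCr8 places Fgf7 inside Fam227b, so shared reads cannot be told apart without strand. The Fgfr3 interval on chromosome 14 (82637838 to 83050335) holds 7 further genes, among them Letm1 and Ctbp1, with log2 ratios between -0.65 and -0.04.

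Regions of the promoter mark lay in or near all 9 loci in both conditions, and the gene-body mark touched the 6 expressed loci. The rule counts any region in the locus, so it does not place the mark at the start of each gene. H3K4me3 lay within 1 kb of 9 of 9 loci in control and after AngII, beside 76.9% and 76.2% of all 14767 symbols. It was present at the 6 expressed genes (96.3% of expressed symbols in either condition) and at Fgf1, Fgf9 and Fgf10 (51.6% and 50% of symbols under 1 FPKM). H3K36me3 touched 6 of 9 loci in control and 7 of 9 after AngII, beside 69.9% and 72.7% of all symbols. The 6 expressed genes all had it, as had 95.6% and 97.5% of expressed symbols, so these shares are near the background. The 3 loci under 1 FPKM lacked it in control, where 36.3% of such symbols had it (40.4% after AngII).

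Fgf2, higher in RNA, had a wider H3K4me3 region after AngII. The region at the lower end of its locus, where RefSeq on GRCr8 has its start, was 5.05 kb wide in control and 7.84 kb after AngII, and its inner edge lay 3.92 kb and 6.76 kb into the locus. A second region, beginning 10.8 kb in for control and 10.6 kb in for AngII, was 1.38 and 1.92 kb wide. H3K4me3 within 1 kb of the locus summed to 6.29 kb in control and 9.68 kb after AngII, a difference of 3.38 kb. Over 6116 expressed loci with coordinates of their own and the mark in both lists, the median difference was 0.08 kb (interquartile range -0.32 to 0.64), and 96.8% of them had a smaller difference than Fgf2. The bins of the 2 lists differ (153 and 160 bp) and there was 1 library each. H3K36me3 covered 98.7% of the Fgf2 locus in control and 100% after AngII, as part of a region of 267 and 271 kb that runs on through Nudt6.

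Fgf16, lower in RNA, had both marks in both conditions. Its H3K4me3 region, across the lower end of the locus, was 5.97 kb wide in control and 5.6 kb after AngII. H3K36me3 covered 98.4% and 95.2% of the 9.58 kb locus. The region itself was 24.1 kb wide in control and 11.5 kb after AngII and ended 14.7 and 2.39 kb beyond the upper end of the locus. By the authors' score, which ranks regions within a list only, the H3K36me3 region stood at percentile 44.3 of control regions and 16.4 of AngII regions.

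**Figure D3:**
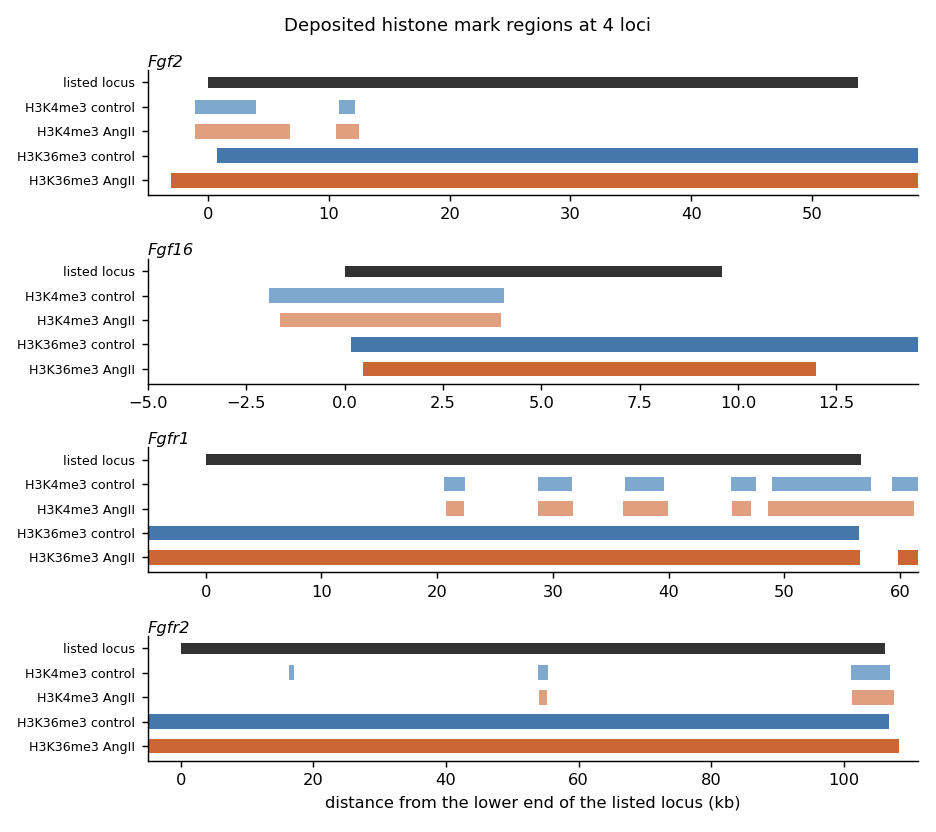
Deposited H3K4me3 and H3K36me3 regions at Fgf2, Fgf16, Fgfr1 and Fgfr2 by distance in kb from the lower end of the listed locus (black bar); pale bars are H3K4me3, dark bars H3K36me3, blue control and orange AngII, and regions running past the 5 kb margin are clipped. The first Fgf2 H3K4me3 region is 5.05 kb in control and 7.84 kb after AngII, and the Fgf16 H3K36me3 region ends 2.39 kb beyond the locus after AngII.

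The Fgfr1 and Fgfr2 loci had H3K4me3 at their upper ends. At Fgfr2 the region there was 5.81 kb wide in control and 6.24 kb after AngII, at percentiles 93.6 and 85.0 of score in their lists, and H3K36me3 covered 100% of the locus in both. A 0.765 kb H3K4me3 region 16.2 kb into the Fgfr2 locus was in the control list alone, at score percentile 7.37. At Fgfr1 the upper-end region was 8.57 kb wide in control with another of 2.45 kb beside it, and 12.6 kb in 1 piece after AngII. The kb of H3K4me3 within 1 kb of the Fgfr1 locus were 18.8 and 19.1, and H3K36me3 covered 99.8% and 99.9%. In the shared intervals of Fgf7 and Fgfr3 regions cannot be assigned to 1 gene. H3K36me3 covered 43.6% and 49.2% of the Fgf7 interval and 53.9% and 57.3% of the Fgfr3 interval.

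Among the ligands with little RNA, Fgf9 had an H3K4me3 region of 7.80 kb in control and 7.2 kb after AngII at the lower end of its locus, wider than the control region of Fgf2. Fgf10 had 1 of 2.75 and 2.40 kb. H3K36me3 covered 0% of both loci in both conditions. At Fgf1 it covered 0% in control and 44.4% after AngII, through regions of 45.5 and 13.7 kb at score percentiles 1.08 and 11.1 of their list. The Fgf1 interval also holds an unnamed locus, at 0 and 0.0419 FPKM, so these regions cannot be assigned to Fgf1 alone. The Fgf1 RNA level was not higher after AngII, with bounds overlapping as given above.

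Other genes of the pathway were taken from 7 lists. Of 16 other FGF ligands 14 had a locus and 7 of these were listed at 0 in both libraries. Fgf13, which acts inside the cell on sodium channels, was the 1 expressed member at 7.24 and 5.38 FPKM. The decoy receptor Fgfrl1 stood at 25.5 and 27.1 FPKM, at an interval of 12 loci, while Fgfr4 and the co-receptor Kl were under 1 FPKM. Among 5 expressed carriers and partners of FGFs 0 were past 2-fold, with Fibp at -0.36, Anxa2 at 0.32, S100a13 at -0.29 and Fgfbp3 at -0.19 on the log2 scale.

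Of 17 expressed genes of heparan sulfate proteoglycans and their enzymes 1 was at least 2-fold higher and 1 at least 2-fold lower, both with bounds apart, near the 3.89% and 2.96% of all expressed symbols. The median log2 ratio was -0.17 (0.10 when centred). Sdc4, the core protein syndecan-4, measured 51.2 FPKM in the control library against 269 FPKM in the AngII library, which is a log2 ratio of 2.37 ± 0.44. Hs6st1, which adds the 6-O-sulfate of heparan sulfate, stood at 48.8 and 13.4 FPKM (-1.79 ± 0.41), and its symbol matched 2 loci. Extl3 (0.90) and the sulfatase Sulf2 (-0.66) followed, with overlapping bounds. Syndecans 1 to 3 lay between -0.18 and -0.01.

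Of 22 expressed kinases and adaptors below the receptor 0 were past 2-fold, bounds overlapped for each, and the median was -0.09 (0.18 when centred). Hras stood at 0.68, Map2k1 at 0.55 and Frs3 at -0.54 on the log2 scale. Frs2, the main docking protein of the receptors, stood at 23.5 and 27.3 FPKM.

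Several feedback inhibitors and early targets were at least 2-fold higher after AngII, and others were not. Of 10 expressed genes listed as feedback inhibitors 6 were at least 2-fold higher (bounds separate for 5) and 0 were lower. Over all expressed symbols 3.89% were higher and 2.96% lower. The median of the 10 was 1.23 on the log2 scale, beside -0.22 over all expressed symbols. The list is broad and also holds Rasa1 (1.12) and Flrt2 (0.64), both with overlapping bounds, for which a feedback role was not tested. Spry2, a Sprouty inhibitor of receptor tyrosine kinase signalling, measured 8.41 FPKM in the control library against 53.4 FPKM in the AngII library (2.53 ± 0.31). The ERK phosphatase Dusp6 stood at 35.3 and 153 FPKM (2.09 ± 0.43), Dusp5 at 0.438 and 27.8 FPKM (4.33 ± 0.33) and Dusp4 at 0.323 and 3.39 FPKM (1.73 ± 0.33). Il17rd, which binds FGF receptors and dampens their signal, stood at 1.503 and 0.777 FPKM (-0.49), with overlapping bounds. Of 11 expressed target genes 6 were at least 2-fold higher, each with separate bounds (2.71% of all expressed symbols), and 0 were lower (2.96% of all). Their median was 1.69. Fosl1 (4.74), Egr1 (4.52), Ier2 (2.44) and Fos (2.34) led; Egr1 and Ier2 lie at intervals of 11 and 24 loci. Values below 0 were those of Etv1 (-0.51), Ccnd1 (-0.44), Etv4 (-0.14) and Myc (-0.12), and Etv5 stood at 0.67. These targets answer many activators of ERK and not FGFs alone. The lists were chosen with earlier results of these data known, so nothing is read from the shares and medians of the lists.

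**Figure D4:**
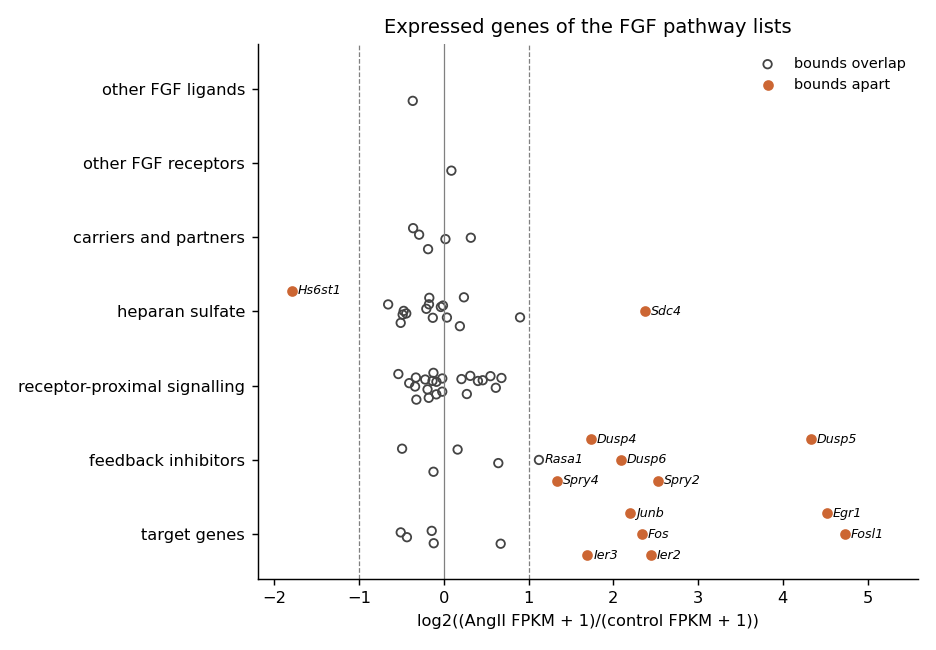
Log2((AngII FPKM + 1)/(control FPKM + 1)) of each expressed gene in the 7 pathway lists; filled points have deposited bounds that do not overlap, open points have overlapping bounds, dashed lines mark 2-fold and vertical scatter carries no meaning. Genes past 2-fold are named: 6 of 10 genes listed as feedback inhibitors, 6 of 11 target genes and 2 of 17 heparan sulfate genes.

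The 3 expressed genes nearest to Fgf2 in the plane of log2(FPKM + 1) in both RNA libraries were Uap1 (4.76 and 35.998 FPKM, distance 0.10), Pcdh18 (4.22 and 29.8 FPKM, distance 0.20) and Glb1l2 (4.39 and 28.4 FPKM, distance 0.25). For Fgf16 they were Otub2 (28.1 and 5.22 FPKM, distance 0.52), Rgs4 (19.2 and 5.92 FPKM, distance 1.03) and Trps1 (23.5 and 7.79 FPKM, distance 1.07). The likeness rests on 2 libraries, and Fgf16 had no neighbour as close as the 3 of Fgf2.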

How the data were processed

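The RNA table of the authors gives FPKM with bounds per locus; per the submitters' processing notes, TopHat, Cufflinks and Cuffdiff were used with rat build rn4 (no versions). Ribosomal RNA was depleted, per the labels' protocols. The RNA tables of both samples were identical and hold both conditions. The deposited ChIP-seq lists hold regions and a score for each. Bowtie was used, per the submitters' processing notes, while the sources used here name no region caller. The score was used only to rank regions within a list. The input libraries were not used here.

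Of 30937 loci 16025 matched exactly 1 symbol through RefSeq (GRCr8, for names). Each symbol was represented by its locus of highest mean FPKM. Expressed means 1 FPKM in either library; the log2 ratio has a pseudocount of 1. H3K4me3 counted within 1 kb of a locus and H3K36me3 on touching it. With 1 library per condition nothing was tested; size and bounds are given. Calculations used Python 3.11.15, numpy 2.4.6 and pandas 2.3.3. The code was tested on simulated data with a smaller pseudocount, a fixed SD and differences well past the 2-fold line. That does not check the size rule at the settings used here. The genes and lists were chosen with earlier results of these data known. All 10 listed genes, up to 4 expressed genes of each list, by absolute log2 ratio, Nudt6 and the 3 nearest genes of Fgf2 and Fgf16 are named; markers, genes of shared intervals and further list members with values were chosen with their values seen. Some listed genes are not reported here. Alternatives covered pseudocount, scaling, minimum, locus choice, size rule and mark rules.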

Additional observations from a re-analysis of the deposited data

How the results depend on the processing

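Fgf2 and Fgf7 stayed at least 2-fold higher and Fgf16 at least 2-fold lower under every pseudocount and scaling tried; with a pseudocount of 5 their log2 ratios were 2.03, 1.31 and -2.23. Among the 9 matched FGF genes the call that depends on the setting is Fgfr2. With it, 2 genes were lower with a pseudocount of 0.1 (Fgfr2 at -1.07), with the sum of all loci of a symbol (-1.03) and with a 1.5-fold rule. The 1.5-fold rule also gave 4 heparan sulfate genes and 2 receptor-proximal genes in place of 2 and 0. Heparan sulfate genes past 2-fold numbered 3 when centred. Genes listed as feedback inhibitors and past 2-fold numbered 4 with a pseudocount of 5 and 5 with a minimum of 5 FPKM, in place of 6. Over all expressed symbols 325 were higher and 247 lower as reported, 491 and 99 when centred, 392 and 580 with a pseudocount of 0.1, 198 and 50 with a pseudocount of 5, 663 and 1366 with the 1.5-fold rule, and 226 and 132 when bounds also had to be apart. The scaling to the upper quartile was added after seeing the data and gave 344 and 210. Of the summary values 93 recomputed ones stayed close to the reported value (1 SD for medians, a factor of 1.5 for counts) and 5 moved. Of the single-gene ratios 36 stayed and 9 moved. No paired analysis was possible because there was a single library in every group, which also left none to omit.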
